A study of Mus musculus with 4 samples.

Results

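Group 2 innate lymphoid cells (ILC2) were examined in single-cell RNA-seq of bleomycin-injured mouse lungs. They were 148 of the 30860 cells with 200 to 7500 detected genes and at most 15% mitochondrial UMIs (unique molecular identifiers, each standing for 1 captured RNA molecule). They were chosen by their UMIs of marker and lineage genes. A cell was counted as an ILC2 when at least 3 of Gata3, Il1rl1, Il7r, Areg and Il17rb had a UMI with Gata3 or Il1rl1 among them, Ptprc (CD45) had a UMI, and Cd3e, Foxp3, Cd4, Cd79a, C1qa, Cdh5, Pdgfra and Epcam had none. The cells came from 4 mice, 2 wild-type (WT) and 2 Tubb3-/-, all of which had received 0.8 U/kg bleomycin into the trachea, and lungs were taken on day 14. The Tubb3-/- mice were homozygous for a Cre knock-in at the start of the Tubb3 coding sequence, and the WT mice were their littermates. In the study's methods, animals of 8 to 11 weeks were used. Each lung gave 2 libraries, one of whole lung cells depleted of TER-119+ cells and one of mural cell-enriched mesenchymal cells depleted of CD31+, CD45+, EpCAM+ and TER-119+ cells and then sorted as MCAM+ PDGFRα- and MCAM- cells that were mixed at 1:1. The whole-cell libraries held 141 of the 148 ILC2 and the mural cell-enriched libraries 7. No saline-treated or uninjured lung was analysed here, so nothing below separates an effect of bleomycin from the usual state of lung ILC2.

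ILC2 are tissue-resident lymphocytes without a rearranged antigen receptor. They read injury through alarmins such as IL-33, which binds the receptor encoded by Il1rl1 (ST2), and through IL-25 and TSLP, and under the transcription factors GATA3 and RORα they release the type 2 cytokines IL-5 and IL-13 and the epidermal growth factor family ligand amphiregulin (Areg). IL-5 recruits and keeps eosinophils alive, IL-13 acts on epithelium, macrophages and fibroblasts, and lung ILC2 are known in allergy, helminth infection, repair and fibrosis. Neuropeptides, lipid mediators and glucocorticoids tune them.

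The targeted gene was read first. Tubb3 was at 1.97 and 0.858 CPM (UMIs of a gene per 1000000 gene UMIs) in the WT whole-cell libraries and at 0.275 and 0.335 CPM in those of Tubb3-/- mice, and at 5.36 and 3.70 against 0.695 and 0.655 CPM in the mural cell-enriched libraries. Each Tubb3-/- library was thus below each WT library of its kind. Cre had 0 UMIs in the 4 WT libraries and 2, 0, 1 and 1 UMIs in the Tubb3-/- libraries. The ILC2 themselves held no UMI of Tubb3 or Cre in 995828 UMIs, which allows up to 2.03% of cells with a UMI and up to 3.01 CPM, so the deletion could not be read in these cells. The 8 libraries held 41462258 to 95036340 gene UMIs in all barcodes of the matrices. Xist was at 3 UMIs in the ILC2 of replicate 1 of both genotypes and at 267 and 362 UMIs in those of replicate 2, so each genotype had 1 mouse of each pattern.

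Each mouse gave 33, 33, 41 and 41 ILC2, where values per mouse are listed as WT 1, WT 2, Tubb3-/- 1 and Tubb3-/- 2 from here on. Their UMIs were summed per mouse, giving 196698, 235014, 257854 and 306262 gene UMIs, and a level in CPM is a share of these sums. An ILC2 held 1183 to 30899 UMIs (median 5859.5). No ILC2 was marked as a doublet by Scrublet, which marked 0.982% of the whole cells and 3.82% of the mural cell-enriched cells. Between the pools 55 barcodes were shared, 1 of them by an ILC2, and within a pool none was. The rules of the sets left 2 cells in both the ILC2 and the NK cell set. RNA of lung epithelium and macrophages was found in every lymphocyte set at a like rate: Scgb1a1 in 95.9% of ILC2 and in at least 95.9% of the other sets, and Lyz2 in 92.6% of ILC2. For each marker the percent of ILC2 holding it is therefore set against NK and B cells, whose median depths were 5241 and 5069 UMIs.

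The genes that chose the cells are given as a description. Gata3, the lineage's master regulator, (chromosome 2, 9857078 to 9890034, minus strand, GRCm38), was at 712, 808, 807 and 777 CPM, and Il1rl1, the IL-33 receptor (chromosome 1, 40429570 to 40465415, plus strand), was at 849, 843, 768 and 872 CPM. Il7r, the IL-7 receptor chain that keeps innate lymphocytes alive, was at 1068, 1051, 1078 and 1146 CPM, Areg at 941, 1285, 1222 and 1231 CPM and Il17rb, the IL-25 receptor, at 81.3, 34.04, 93.1 and 55.5 CPM. These levels lay close together in the 4 mice except for Il17rb, which spread most. A UMI of Il7r was found in 98.6% of the cells, of Il1rl1 in 96.6%, of Gata3 in 93.2%, of Areg in 66.9% and of Il17rb in 30.4%, against 6.56, 1.16, 20.5, 3.09 and 0% of NK cells and 10.4, 2.26, 2.43, 5.57 and 0% of B cells. Both Gata3 and Il1rl1 were present in 133 cells, and 47, 75 and 26 cells held 3, 4 and 5 of the 5 markers. The markers are not particular to ILC2. Together with Ptprc they summed to 4377 to 4770 CPM in ILC2 and 3786 to 4869 CPM in Foxp3 cells, which overlap. Of 883 cells with Ptprc that met the marker part of the rule, 544 held Cd3e and 456 Foxp3. The split from these cells rests on the absence of a UMI.

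Most ILC2 markers that the rule had not used were found in the cells. Rora was found in 96.6% of the cells, against 40.9% of NK and 13.0% of B cells, Il2ra (CD25) in 81.1% (2.70% and 4.35%) and Icos in 53.4% (15.1% and 2.78%). Arg1 was found in 52.7% (0.772% and 1.04% of NK and B cells), Calca in 52.0% (0.772% and 1.22%) and Il5 in 30.4% (0% of both). Other markers were weak or absent: Klrg1 was in 27.7% of ILC2, below the 32.8% of NK cells and above the 1.74% of B cells, Nmur1 (the neuromedin U receptor) in 2 cells and Ptgdr2 (the prostaglandin D2 receptor CRTH2) in 0 of 148, which allows up to 2.03%. Genes of the other innate lymphoid cells were mostly rare. Of the NK cell and ILC1 list, 1 of 14 genes (Ifng) had no UMI, the others were each found in at most 9 ILC2 (Gzma with 60 UMIs in 5 cells, Klra8 with 16 in 2, Ncr1 with 4 in 2), and the list summed to 42.5 to 380.1 CPM against 14434 to 21115 CPM in NK cells. Of 9 ILC3 and type 17 genes, Il22 and Il17f had no UMI, Il17a had 42 UMIs in 2 cells, nearly all in WT 2 (5.08, 174, 0 and 0 CPM), and Il23r had 12 in 3 cells. The lymphotoxin gene Ltb, which T and B cells also hold, was found in 70.3% of ILC2 (13.5% of NK and 54.1% of B cells) and was the 1 member of that list tested and called higher against NK cells (3.47 ± 0.29, adjusted p = 5.07e-05, edgeR), and of the list 0 of 4 members tested were called against CD4 T cells and 0 of 2 against Foxp3 cells (edgeR, 1 and 0 with an unadjusted p under 0.05). Of 12 mast cell and basophil genes, 7 had no UMI, Fcer1a, Mcpt4 and Mcpt8 among them, and the list summed to 25.4 to 49.0 CPM. At the edge of the rule, the 47 cells with 3 markers had Rora in 91.5%, Arg1 in 36.2%, Calca in 38.3% and Il5 in 12.8%, while the 77 cells left out with 2 markers had them in 61.0%, 1.30%, 5.19% and 0%, at a median of 5806 against 9994 UMIs.

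T cell receptor RNA was common in these cells. A UMI of Cd3d, Cd3g, Trac, Trbc1 or Trbc2 was found in 136 of 148, mostly of Trbc2 (73.0% of cells against 40.9% of NK and 6.26% of B cells, 361, 383, 314 and 369 CPM) and Trbc1 (366, 153, 314 and 251 CPM), whereas Cd3d or Trac was found in 19 cells and both in 6. Cd3g was found in 29.8, 29.3 and 7.69% of the ILC2 with 3, 4 and 5 of the markers. In CD4 T cells Trac stood at 412 to 504 CPM and in ILC2 at 35.6, 17.02, 34.9 and 9.80 CPM. A further 121 cells met the marker part of the rule without Cd3e, Foxp3 or Cd4 and were left out for another lineage gene, 53 of them for 1 UMI, so a looser rule would hold more cells.

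Single cells with RNA of another lineage touched some sums and are named here because results below rest on them. In 6 of the 148 cells over 1% of UMIs fell in 1 list of genes of another lineage: 4 with myeloid genes (1 per mouse), 1 of Tubb3-/- 1 with fibroblast genes (265 UMIs of Col1a1) and 1 of Tubb3-/- 2 with 48.6% of its UMIs in epithelial genes. These 6 are called mixed cells. In each mouse 1 cell also held most of the MHC class II RNA, with 179, 179, 74 and 100 UMIs of H2-Aa, which was 93.7, 96.2, 84.1 and 78.1% of that mouse's ILC2 total, while the next cell held 3, 2, 2 and 2. These 4 cells carried 0 to 5 UMIs of Gata3 and 2 to 5 of Il1rl1. Both leave-out settings were chosen after the data were seen.

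No difference between the genotypes in the share of ILC2 was found beyond the spread between mice. They made up 1.43% (32 of 2243), 1.65% (31 of 1876), 1.56% (38 of 2442) and 1.98% (40 of 2021) of Ptprc-positive cells in the whole-cell libraries. The 95% Wilson intervals ran from 1.01 to 2.01%, 1.17 to 2.34%, 1.14 to 2.13% and 1.46 to 2.68%. Like the other intervals and limits on counts given here, they cover counting error only. The groups overlapped, with WT 2 above Tubb3-/- 1. The mean was 0.228 percentage points higher in Tubb3-/- mice (exact two-sided permutation test, p = 0.667), and with 2 mice against 2 that test cannot go below 0.333. Leaving out 1 mouse gave differences of 0.0165 to 0.440 points. When every cell was thinned to 2000 UMIs before the rule was applied, the difference was 0.939 points and the groups did not overlap (exact permutation test, p = 0.333). Among the same Ptprc-positive cells, CD4 T cells made up 4.19, 2.88, 3.28 and 3.17%, Foxp3 cells 2.99, 0.906, 5.16 and 3.02%, and NK cells 3.70, 4.96, 2.05 and 1.48%. In the mural cell-enriched libraries, which had been depleted of CD45+ cells, ILC2 were 0.0419% of all cells against 0.996% in the whole-cell libraries, and 1.37 against 1.64% of Ptprc-positive cells.

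**Figure D1:**
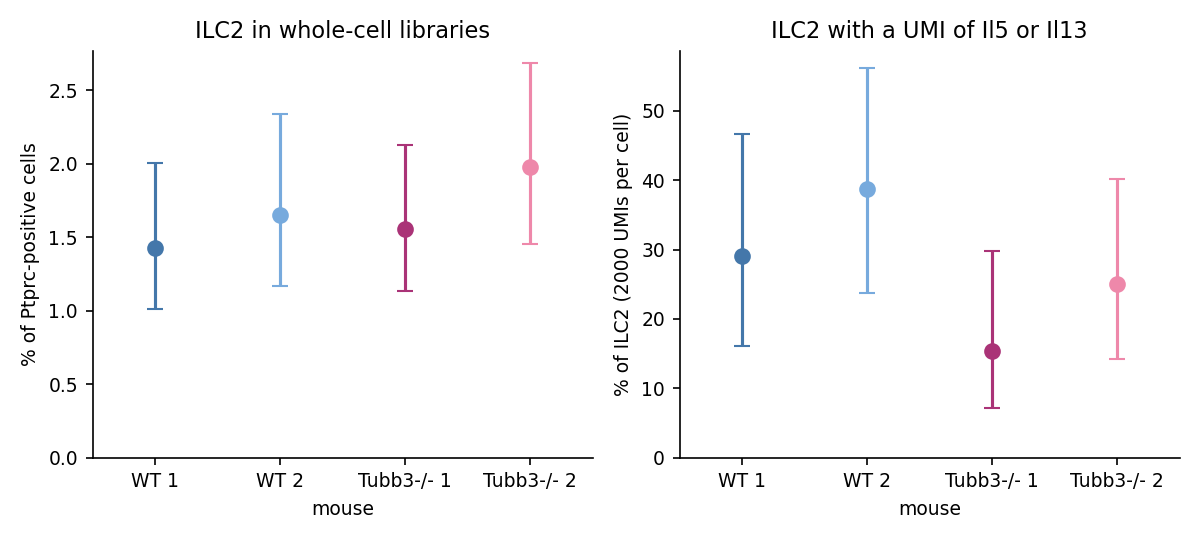
Each point is 1 mouse and each bar its 95% Wilson interval. The left panel gives ILC2 as a percent of Ptprc-positive cells in the whole-cell libraries, where the 4 mice lie between 1.43 and 1.98% with overlapping groups. The right panel gives the percent of ILC2 with a UMI of Il5 or Il13 after thinning to 2000 UMIs per cell, where both WT mice lie above both Tubb3-/- mice and the intervals overlap.

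RNA of several effector genes was higher in ILC2 than in the other lymphocytes of the same 4 lungs, among them Il5, Csf2, Calca, Ccl1, Cxcl2 and Furin. The ILC2 were compared with 296 CD4 T cells, 274 Foxp3 cells (regulatory T cells by marker) and 259 NK cells. The sets were summed per mouse and fitted with edgeR with the mouse as a block. A call needed an adjusted p under 0.05 and a log2 difference of at least 1. Over all genes, 7.37% of 5213 were called higher and 5.41% lower in ILC2 than in CD4 T cells, 7.46% and 6.67% of 4381 against Foxp3 cells, and 8.61% and 8.23% of 4729 against NK cells. In either direction these were 12.8, 14.1 and 16.8%, and an unadjusted p under 0.05 was reached by 30.0, 33.5 and 34.1%. In the list of type 2 effectors and cytokines, 10 of 15 members tested were higher and 0 lower against CD4 T cells, 10 of 14 members tested were higher and 2 lower against Foxp3 cells and 12 of 16 members tested were higher and 4 lower against NK cells. Their median log2 differences were 3.15, 3.0 and 4.92, beside -0.01, 0.01 and -0.04 over all genes tested, and they did not move when genes with 3 or fewer UMIs in a set were put at their ratio or bound. Of the members tested, 3 against Foxp3 cells and 5 against NK cells had 3 or fewer UMIs in 1 of the sets and so passed the count filter only through the other set, where they were high. Such a gene had to differ, and without these members 8 of 11 were higher and 1 lower against Foxp3 cells (median 2.76), and 8 of 11 were higher and 3 lower against NK cells (median 4.36). These counts still hold members with slightly more UMIs that also passed the filter only through the ILC2. Csf2 had 5, 4 and 4 UMIs in CD4 T, Foxp3 and NK cells, Ccl1 had 4 in Foxp3 cells and Calca 4 in NK cells. Such members were not left out. In the identity, receptor and trafficking lists below, 0 to 2 members in each comparison had 3 or fewer UMIs in 1 of the sets. The median of the trafficking list against NK cells was -0.31 without them. The 3 comparisons share the ILC2 sums, genes of either rule were left out of the tests described, and each gene named as called lay on the same side in 4 of 4 mice. With the 12 ILC2 that held no T cell receptor UMI the calls were 211, 117 and 214 in place of 666, 619 and 796, and without a filter on low counts they were 1098, 1127 and 1332.

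Il5 stood at 1332, 536, 306 and 196 CPM in ILC2. It had no UMI in Foxp3 or NK cells, which puts ILC2 at least 359-fold and at least 306-fold higher, and in CD4 T cells it ranged from 4.85 to 172 CPM (log2 difference 3.36 ± 0.84, adjusted p = 0.0186 by edgeR). WT 1 was the highest ILC2 sum, while CD4 T cells of WT 2 and Tubb3-/- 2 were the highest of their set. Il13 stood at 137, 208, 34.9 and 98.0 CPM, had 0 UMIs in NK cells (at least 66.7-fold higher) and ranged from 0 to 42.2 CPM in CD4 T cells (log2 difference 3.74 ± 0.78, adjusted p = 0.00699 by edgeR). Il5 and Il13 lie on chromosome 11, with 86091 bases between them (Il5 at 53720794 to 53725106 on the plus strand, Il13 at 53631324 to 53634702 on the minus strand, GRCm38), and 12654 bases lie between Il13 and Il4. Il4, at 112, 55.3, 19.4 and 49.0 CPM, was not called against CD4 T cells (log2 difference 1.59 ± 0.73, adjusted p = 0.18 by edgeR). Il5 overlaps the gene Gm12214 on the other strand, and strand-specific counting is not given in the sources used here. Il9 had no UMI in ILC2.

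To show what lies before the starts of cytokine and receptor genes of ILC2, the 120 bases upstream of the annotated starts of 14 genes were read from RefSeq (GRCm38.p6). These windows were searched on both strands for the GATA hexamers AGATAA and TGATAA alone. Forms that end in G, such as AGATAG, were not searched. A match was found for 3 genes, Il13, Il1rl1 and Ccl1, and not for the other 11, which were Il5, Csf2, Il4, Areg, Calca, Gata3, Il7r, Il17rb, Kit, Vipr2 and Dach2. The windows with a match and that of Il5, the cytokine gene described above, are printed 5′ to 3′ on the strand of the gene. They are Il5 (chr11:53720674-53720793, plus strand), Il13 (chr11:53634703-53634822, minus strand), the first of 2 starts of Il1rl1 (chr1:40429450-40429569, plus strand) and Ccl1 (chr11:82179813-82179932, minus strand). Capitals mark the matches.
Il5: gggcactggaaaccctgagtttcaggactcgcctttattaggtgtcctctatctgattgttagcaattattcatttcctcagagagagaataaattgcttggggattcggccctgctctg
Il13: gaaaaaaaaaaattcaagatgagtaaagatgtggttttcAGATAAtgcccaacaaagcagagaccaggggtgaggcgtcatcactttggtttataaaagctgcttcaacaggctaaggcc
Il1rl1: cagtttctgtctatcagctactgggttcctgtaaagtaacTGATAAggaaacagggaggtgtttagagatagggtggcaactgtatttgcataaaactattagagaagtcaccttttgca
Ccl1: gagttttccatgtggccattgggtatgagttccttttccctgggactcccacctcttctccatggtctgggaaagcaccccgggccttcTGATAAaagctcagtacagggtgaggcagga
The match begins 81 bases before the start in Il13, 80 in Il1rl1 and 31 in Ccl1, and the Il5 window holds neither hexamer. The Il5 window does hold ctatct, which is AGATAG on the other strand, and the printed Il1rl1 window holds agatag. Both starts of Il1rl1 hold 1, so that 4 of the 18 windows of the 14 genes do, beside 7.63% of the windows of this length over 32851 promoters. A match is a string of letters and no binding was measured.

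Chemokine and growth factor genes were among the effectors called in every comparison. Cxcl2, a neutrophil attractant, stood at 1144, 2017, 1384 and 1891 CPM in ILC2 against 80.3 to 136 in CD4 T cells, 437 to 761 in Foxp3 cells and 98.7 to 202 in NK cells, so that each ILC2 sum was above each of the others (log2 differences 3.90 ± 0.20, 1.67 ± 0.17 and 3.56 ± 0.14). Ccl1, the ligand of CCR8, stood at 1322, 1323, 768 and 859 CPM in ILC2 and reached 245 CPM in the CD4 T cells of Tubb3-/- 2 but at most 6.80 CPM in Foxp3 cells and 2.70 CPM in NK cells. Its receptor gene Ccr8 stood at 158, 366, 259.8 and 216 CPM in the same ILC2, overlapping the 126, 143, 193 and 149 CPM of Foxp3 cells (log2 difference 0.76 ± 0.21, adjusted p = 0.0193 by edgeR, below the fold minimum). It was called higher than in CD4 T cells, at 20.1 to 70.3 CPM (2.30 ± 0.34, adjusted p = 0.000981 by edgeR), and had no UMI in NK cells (at least 145-fold higher). Furin, a protease that matures growth factors such as TGF-β, stood at 676, 1153, 888 and 1045 CPM (log2 differences 2.57 ± 0.20, 2.36 ± 0.17 and 4.36 ± 0.22). Csf2, which encodes GM-CSF, stood at 132, 485, 551 and 255 CPM in ILC2 and at most 6.80 CPM in the other sets (log2 differences 7.16 ± 0.37, 7.39 ± 0.39 and 7.16 ± 0.49). The differences of Cxcl2, Ccl1, Furin and Csf2 were called in each comparison by edgeR, with the ILC2 sum higher in 4 of 4 mice. With 5, 4 and 4 UMIs in CD4 T, Foxp3 and NK cells, Csf2 passed the count filter only through the ILC2. So did Ccl1 against Foxp3 and NK cells, which held 4 and 1 UMIs. Such genes had to differ, so these calls are a description.

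Calca, which encodes calcitonin and the neuropeptide CGRP, stood at 539, 451, 1039 and 931 CPM in ILC2. In the other sets it lay at 2.24 to 213 CPM in CD4 T cells, 0 to 36.2 in Foxp3 cells and 0 to 5.27 in NK cells (log2 differences 4.26 ± 0.56, 5.11 ± 0.34 and 8.13 ± 0.44, called in each by edgeR). With 4 UMIs in NK cells, Calca passed the count filter of that comparison only through the ILC2. Tnfsf11 (RANKL) stood at 315, 128, 279 and 134 CPM and was nearest to CD4 T cells, at 80.3 to 105 CPM (log2 difference 1.19 ± 0.22, adjusted p = 0.00352 by edgeR). Il2 and Lif were at 107, 183, 163 and 346 and at 50.8, 174, 54.3 and 222 CPM, and both were called higher against each of the 3 sets by edgeR. Arg1, the arginase that lung ILC2 hold constitutively, stood at 203, 357, 259.8 and 255 CPM, with 0 UMIs in 3 of 4 mice in each of the other sets. The members called lower against NK cells were Ccl3, Ccl4, Ccl5 and Xcl1, which are chemokines of cytotoxic lymphocytes, and Ccl3 and Ccl4 have close copies whose reads may be split. Against Foxp3 cells Il10 and Odc1 were lower.

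**Figure D2:**
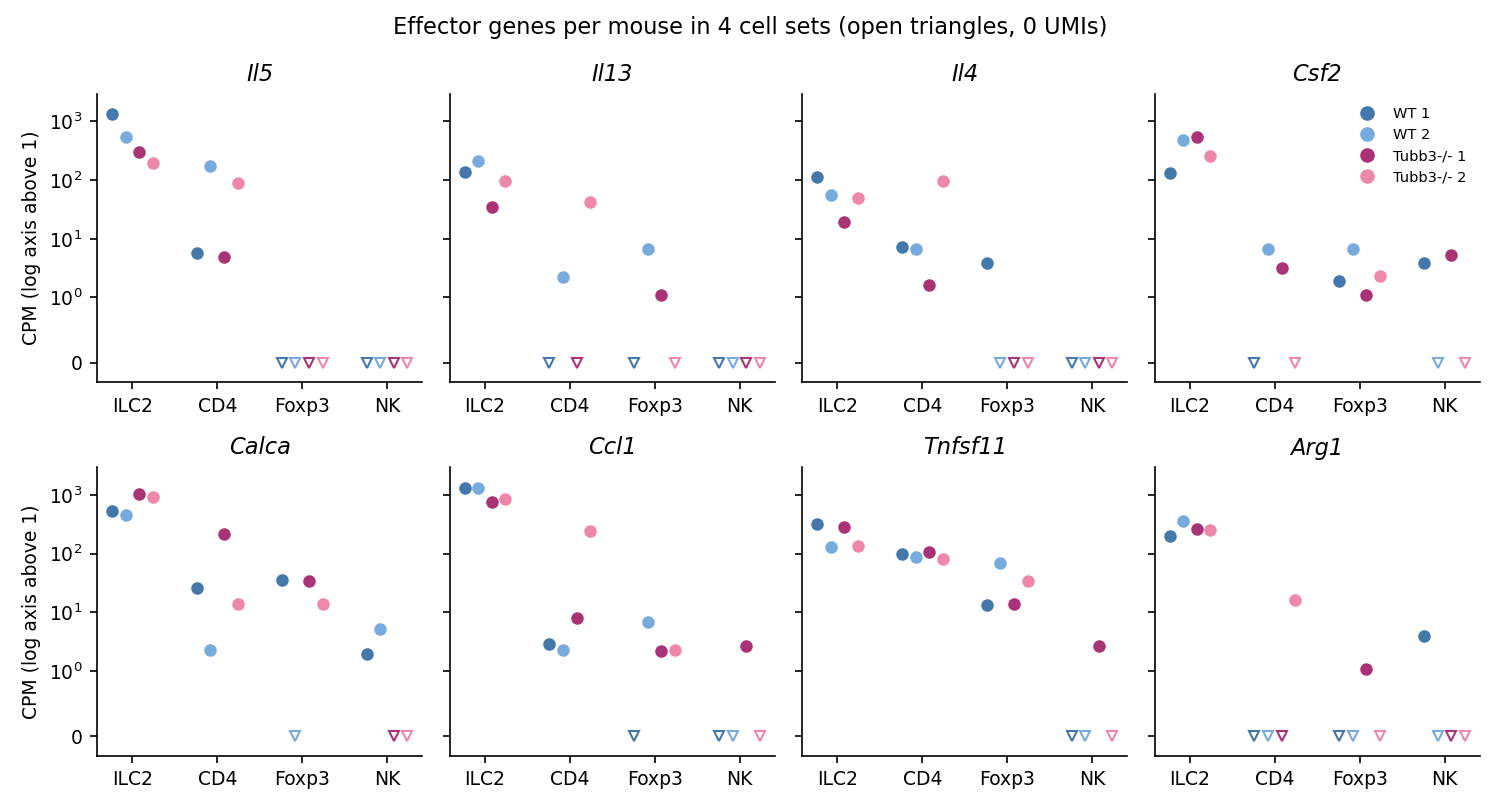
Level of 8 effector genes in CPM (linear below 1 and logarithmic above) in the 4 cell sets, with 1 point per mouse and open triangles for sums without a UMI. The ILC2 sums of Il5, Csf2, Calca and Ccl1 lie above those of Foxp3 and NK cells in every mouse, and the nearest sums are those of CD4 T cells in single mice for Il5, Calca and Ccl1.

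Effector RNA was not found in every ILC2. Of the 148 ILC2, 75% held a UMI of at least 1 of 8 cytokine genes and 46 held 3 or more, and the share with at least 1 was 66.7, 75.8, 73.2 and 82.9%. Il5 was found in 45 cells and Il13 in 17, of which 13 held both. Among the 45 Il5 cells Csf2 was in 66.7% and Ccl1 in 55.6%, against 23.3% and 32.0% of the others. Csf2 was in 88.2% of the Il13 cells and 29.8% of the rest. Calca, in 77 cells, went with Arg1, which was in 67.5% of the Calca cells and 36.6% of the others, at like depths (median 5806 and 5913 UMIs). Il5 cells were somewhat deeper, at a median of 6818 against 5547 UMIs. These shares are a description over cells of 4 mice, without a test.

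The genes of ILC2 identity outside the rule were called more often against CD4 T and NK cells than against Foxp3 cells, a difference in counts that was not tested. Against CD4 T cells 11 of 19 members tested were higher and 1 lower, with a median log2 difference of 1.12. Against NK cells 11 of 19 members tested were higher and 1 lower (median 2.72), and against Foxp3 cells 4 of 18 members tested were higher and 3 lower (median 0.23). Without members with 3 or fewer UMIs in 1 of the sets, 9 of 17 were higher and 1 lower against NK cells (median 2.10). Against Foxp3 cells 3 of 17 were then higher and 3 lower (median 0.05). Rora, which encodes RORα, stood at 2212, 2613, 2036 and 2175 CPM (log2 difference 1.90 ± 0.17, adjusted p = 3.96e-05 against CD4 T cells, 4.06 ± 0.22, adjusted p = 5.06e-06 against NK cells, edgeR) and exceeded Foxp3 cells by less than the fold minimum (0.79 ± 0.13). Tox, needed for innate lymphoid development, stood at 956, 1051, 981 and 793 CPM, above CD4 T and NK cells (1.12 ± 0.15 and 2.81 ± 0.18) and at -0.76 ± 0.11 against Foxp3 cells. Lmo4, a LIM-domain cofactor of transcription, was called higher in all 3 comparisons, at 707, 698, 469 and 594 CPM, with a log2 difference from Foxp3 cells of 4.02 ± 0.22 (adjusted p = 2.94e-07, edgeR).

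Il2ra, the IL-2 receptor α chain, was not called against Foxp3 cells, at 488, 774, 516 and 584 CPM against 353 to 653 CPM (log2 difference 0.40 ± 0.20, adjusted p = 0.19, edgeR). Its 95% interval of 0.01 to 0.80 is a normal approximation from the SE of the fit and is narrower than the edgeR test allows. Beside Lmo4, the members called higher than in Foxp3 cells were Kit, the stem cell factor receptor, Hlf, a PAR bZIP transcription factor, and Arg1. With 1 UMI in Foxp3 cells, Arg1 passed the count filter only through the ILC2, and so did Kit, at 0 to 4.33 CPM in Foxp3 cells. Kit stood at 229, 289, 240.4 and 278 CPM in ILC2 and 0 to 4.33 CPM in Foxp3 cells (6.67 ± 0.39, adjusted p = 6.33e-07), and Hlf at 239, 311, 178 and 310.2 and 9.17 to 47.6 CPM (3.48 ± 0.34, adjusted p = 2.21e-05, both edgeR). Il2rb, Klrg1 and Icos were the members lower than in Foxp3 cells. Tcf7, which encodes TCF-1, was the 1 member lower than in CD4 T cells, at 40.7, 46.8, 19.4 and 0 against 233 to 442 CPM.

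Receptor genes for steroids, lipids and neuropeptides were higher in ILC2 for part of the list. In this list 10 of 24 members tested were higher and 1 lower against CD4 T cells, 7 of 23 members tested were higher and 2 lower against Foxp3 cells and 11 of 23 members tested were higher and 5 lower against NK cells (medians 0.79, 0.52 and 0.73). Nr3c1, the glucocorticoid receptor, stood at 1002, 1119, 842 and 793 CPM and was called against NK cells (2.00 ± 0.14, adjusted p = 1.66e-05, edgeR), with log2 differences of 0.73 ± 0.16 and 0.50 ± 0.17 from CD4 T and Foxp3 cells.

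The CGRP receptor is a complex of the products of Calcrl and Ramp1, the ligand gene of which is Calca. Calcrl stood at 168, 281, 139.6 and 225 CPM and Ramp1 at 346, 345, 259.8 and 454 CPM. Both were called higher than in CD4 T cells (1.86 ± 0.19 and 2.07 ± 0.19) and NK cells (1.89 ± 0.21 and 3.19 ± 0.30) by edgeR, and neither reached the fold minimum against Foxp3 cells. Ramp3, another accessory protein of that receptor family, stood at 239, 451, 310.3 and 274 CPM and was called against Foxp3 and NK cells (2.45 ± 0.26 and 6.58 ± 0.61). Vipr2, a receptor for vasoactive intestinal peptide, stood at 117, 89.4, 175 and 118 CPM and had no UMI in NK cells (at least 72.5-fold higher). Il10ra was called higher in all 3 comparisons, at 259, 315, 295 and 229 CPM. Ifngr1 and Il18r1 were lower than in NK cells (-1.45 ± 0.21 and -2.22 ± 0.31, edgeR). Crlf2, the TSLP receptor, stood at 40.7, 46.8, 58.2 and 101.2 CPM and was called in none of the 3 comparisons.

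Genes of the NF-κB, AP-1 and JAK-STAT pathways were more often higher than lower in ILC2. Of this list, 14 of 35 members tested were higher and 4 lower against CD4 T cells, 8 of 34 members tested were higher and 7 lower against Foxp3 cells and 14 of 33 members tested were higher and 2 lower against NK cells (medians 0.48, 0.36 and 0.67). Nfkb1, which encodes the NF-κB subunit p50, stood at 2913, 2753, 3331 and 2971 CPM and was called in all 3 comparisons (log2 differences 2.41 ± 0.14, adjusted p = 4.15e-06 against CD4 T cells, 1.32 ± 0.12, adjusted p = 8.98e-06 against Foxp3 cells and 2.76 ± 0.13, adjusted p = 3.79e-06 against NK cells, edgeR). Nfkbia, the inhibitor IκBα, stood at 2013, 1847, 1326 and 2057 CPM and passed against CD4 T and NK cells (1.89 ± 0.21 and 1.52 ± 0.17). The nuclear receptors Nr4a1 and Nr4a3, induced by receptor signalling, stood at 666, 919, 787 and 712 and at 681, 1059.5, 776 and 921 CPM, and Nr4a3 was called in all 3 comparisons. Junb, at 1215, 2085, 1718 and 1812 CPM, was called in none (log2 differences 0.38, -0.40 and 0.35). Stat5b, which relays IL-2 and IL-7 signals, was lower than in CD4 T and Foxp3 cells (-2.49 ± 0.29 and -2.06 ± 0.26, edgeR). Fos, Fosb, Jun and Nr4a1 also respond to tissue dissociation. In a list of 15 dissociation genes, 2 were higher and 3 lower than in CD4 T cells, 2 and 2 against Foxp3 cells and 0 and 2 against NK cells, and its part in these levels was not tested.

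**Figure D3:**
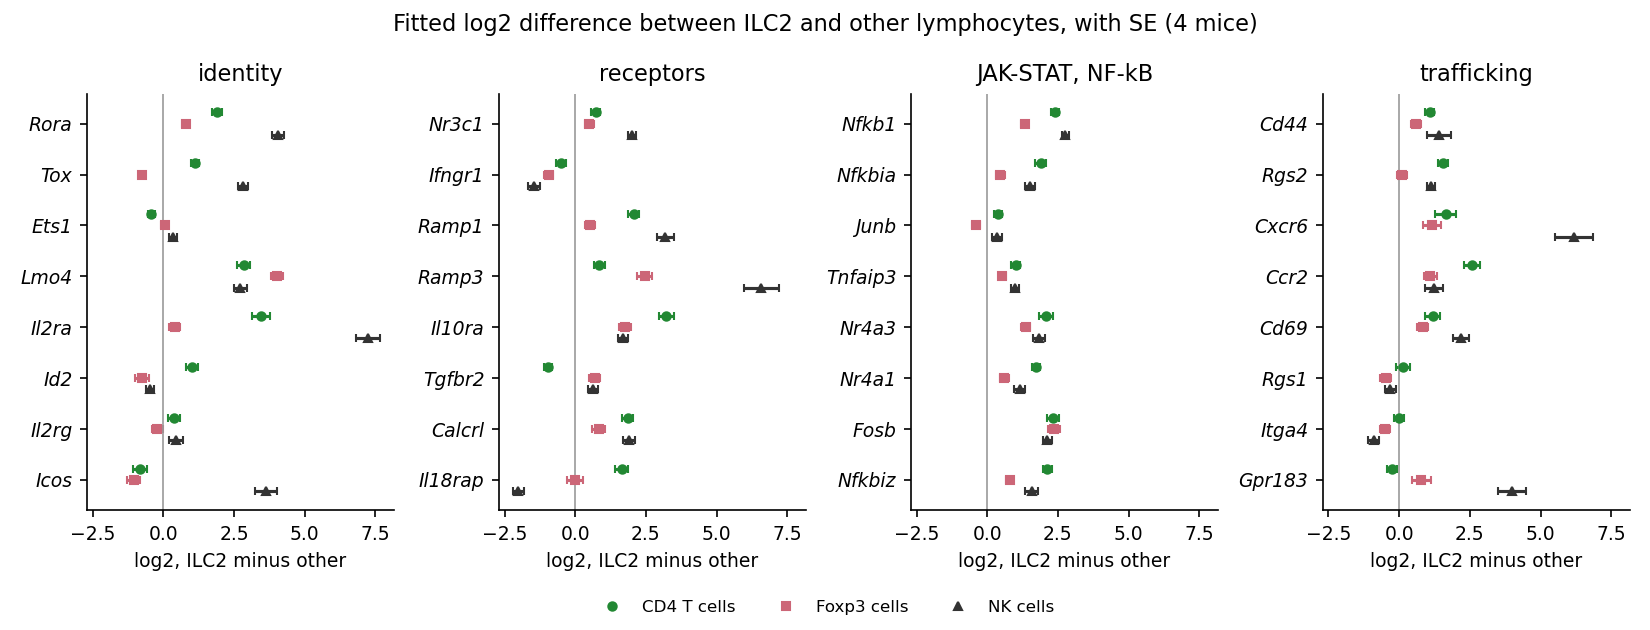
Fitted log2 difference of ILC2 against CD4 T cells (circles), Foxp3 cells (squares) and NK cells (triangles) with the SE over 4 mice, for the 8 reported members of each of 4 lists with the highest mean CPM in ILC2, tested in all 3 comparisons and with more than 3 UMIs in each set. Rora, Lmo4 and Nfkb1 lie to the right of 0 in each comparison.

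Trafficking genes moved in both directions. In this list 7 of 20 members tested were higher and 6 lower against CD4 T cells, 3 of 21 members tested were higher and 5 lower against Foxp3 cells and 9 of 19 members tested were higher and 6 lower against NK cells (medians -0.01, -0.15 and 0.21). The chemokine receptors Cxcr6 and Ccr2 were called higher in all 3 comparisons by edgeR, at 330.5, 877, 299 and 480.0 and at 285, 477, 430.5 and 457 CPM. Cd44, the hyaluronan receptor, stood at 768, 1119, 519.7 and 584 CPM and Rgs2, which dampens G protein signals, at 589.7, 813, 617 and 855 CPM, and both were higher than in CD4 T and NK cells. The genes of exit to lymph and blood were low: S1pr1 stood at 50.8, 25.5, 15.5 and 3.27 CPM against 267 to 325 in CD4 T cells (-3.76 ± 0.37, adjusted p = 7.62e-05) and Ccr7 at 66.1, 38.3, 11.6 and 16.3 against 204 to 429.6 CPM (-3.17 ± 0.31, adjusted p = 7.1e-05, both edgeR).

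Costimulatory and checkpoint genes included Pdcd1 (PD-1), at 183, 243, 256 and 313 CPM, Tnfrsf18 (GITR), at 234, 328, 365 and 460.4 CPM, and Cd200r1, at 234, 319, 240.4 and 310.2 CPM. All 3 were higher than in CD4 T cells (1.74 ± 0.28, 1.28 ± 0.22 and 2.43 ± 0.22) and NK cells (6.38 ± 0.44, 2.65 ± 0.30 and 4.69 ± 0.42) by edgeR, and none was called against Foxp3 cells. Ctla4 and Tnfrsf4 (OX40), which Foxp3 cells hold, were lower than in Foxp3 cells (-4.17 ± 0.28 and -4.53 ± 0.31). Over the list, 10 of 18 members tested were higher and 4 lower against CD4 T cells, 5 of 17 members tested were higher and 5 lower against Foxp3 cells and 8 of 13 members tested were higher and 0 lower against NK cells (medians 1.24, -0.29 and 1.54). These counts hold 4 MHC class II genes that rested on 1 cell per mouse. Cd74, H2-Ab1, H2-Aa and H2-Eb1 were higher than in CD4 T cells by 1.79, 1.65, 1.65 and 1.81 on the log2 scale, and stood at -1.76, -1.45, -1.52 and -1.44 without the cell with the most H2-Aa of each mouse. Without those 4 cells 4 of 15 members were higher and 6 lower than in CD4 T cells, 0 and 5 of 15 against Foxp3 cells and 4 and 3 of 12 against NK cells, with medians of -1.44, -0.53 and 0.33. Cd86, called higher in all 3 comparisons, was no longer tested.

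Among genes outside the lists, Dach2, a Dachshund family transcription cofactor, stood at 1302, 651, 717 and 725 CPM in ILC2 and had 2 UMIs in CD4 T cells and 1 in Foxp3 cells, at ratios of 921-fold (95% counting interval 254 to 7622) and 1666-fold (95% counting interval 298 to 65882). Kcnd2, a voltage-gated potassium channel, stood at 137, 196, 116 and 163 CPM and had no UMI in any of the 3 other sets, so that ILC2 were at least 115-fold, at least 104-fold and at least 88.8-fold higher, though its UMIs came from 28 cells. Cntn1, a neural adhesion molecule, stood at 178, 229.8, 233 and 320.0 CPM and was at least 168-fold higher than in Foxp3 cells, with a log2 difference of 5.83 ± 0.35, adjusted p = 4.59e-06 from CD4 T cells (edgeR). The heparan sulfate sulfotransferase gene Hs3st1 stood at 107, 383, 233 and 402 CPM (log2 difference 6.53 ± 0.47, adjusted p = 1.29e-05 against CD4 T cells, edgeR), and the amino acid transporter gene Slc7a8 at 254, 247, 442 and 235 CPM (7.25 ± 0.48, adjusted p = 1.41e-06 against Foxp3 cells, edgeR). Cntn1 and Hs3st1 had 9 and 6 UMIs in CD4 T cells, and Slc7a8 had 4 in Foxp3 cells. In those comparisons these genes passed the count filter only through the ILC2. Stab2, a scavenger receptor best known from sinusoidal endothelium, stood at 147, 259.6, 34.9 and 160.0 CPM and had no UMI in CD4 T cells (at least 111-fold higher). Adam12, a metalloprotease, stood at 158, 123, 136 and 114 CPM, against 68.6, 13.6, 81.1 and 61.9 CPM in Foxp3 cells (log2 difference 1.28 ± 0.27, adjusted p = 0.00515, edgeR) and 4.02 to 50.1 CPM in CD4 T cells (2.84 ± 0.42, adjusted p = 0.000929, edgeR), and had no UMI in NK cells (at least 75.4-fold higher). The uncharacterised 1700113H08Rik, Ccdc184 and the γ receptor constant segment Tcrg-C4, whose reads may be shared with its close copies, completed the genes with the highest differences, at 163, 302, 178 and 147, at 193, 191, 163 and 255 and at 86.4, 89.4, 62.1 and 124 CPM.

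The genes furthest below 0 were mostly known markers of the compared cell. Against CD4 T cells these were Lef1, Cd3d, Trat1 and Ms4a6b (log2 differences -5.33 ± 0.40, -4.72 ± 0.43, -4.65 ± 0.50 and -4.59 ± 0.39) and St8sia1, which had no UMI in ILC2 and was at least 34.4-fold lower. Against Foxp3 cells they were Cd3d, Cd5, Tnfrsf4, Tox2 and Trac (from -4.89 ± 0.44 to -4.46 ± 0.28). Against NK cells they were Ifng and Klra3, without a UMI in ILC2 (at least 62.2-fold and at least 50.6-fold lower), Xcl1, which had 1 UMI in ILC2 and was 356-fold lower (95% counting interval 63.7 to 14092), and the cytotoxic genes Gzmb and Prf1 (-6.93 ± 0.42 and -6.80 ± 0.39). Klra3 has close copies among which reads may be split. In the T cell list 0 of 13 members tested were higher and 13 lower against CD4 T cells and 0 of 13 members tested were higher and 12 lower against Foxp3 cells (medians -2.74 and -3.03), and in the NK cell list 0 of 9 members tested were higher and 9 lower against NK cells (median -6.02, or -5.96 with the gene without a UMI at its bound). The compared sets were chosen by T or NK cell genes, and the ILC2 by the absence of Cd3e, Cd4 and Foxp3. The counts of these 2 lists follow in part from those rules and are a description. Gzmb and Prf1, with 5 and 7 UMIs in ILC2, passed the count filter only through NK cells. Proliferation genes were low: Mki67 and Top2a were each found in 5 ILC2, and of the cell cycle list 0 of 8 members tested were higher and 2 lower against CD4 T cells, 0 of 7 members tested were higher and 5 lower against Foxp3 cells and 0 of 4 members tested were higher and 2 lower against NK cells (medians -0.78, -1.71 and -0.91). Of the interferon response list, 1 of 7 was higher and 4 lower than in CD4 T cells, 0 of 4 and 2 against Foxp3 cells and 0 of 3 and 1 against NK cells (medians -1.08, -0.90 and -0.22).

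Tubb3-/- and WT mice were then compared within the ILC2. With edgeR, 1 of 4067 genes passed an adjusted p of 0.05 (0.0246%), and 177 had an unadjusted p under 0.05 (4.35%). The groups of 2 did not overlap for 32.8% of the genes, 16.5% higher and 16.2% lower in Tubb3-/- mice, which is the rate to read the values below against. On simulated data with these depths the fit recovered 94.5% of genes changed by a log2 of 2 and 6% of those changed by 1. These rates are for the 200 genes changed in each simulation. They give no recovery rate for genes at low levels or with most UMIs in 1 or a few cells. They therefore need not hold over all 4067 genes tested. A gene of that kind without a call may still have changed. With a mouse left out the count of called genes rose to 62 (WT 1), 47 (WT 2), 35 (Tubb3-/- 1) and 81 (Tubb3-/- 2), fits in which the lone mouse is assumed to vary like the pair.

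Retnla, which encodes the alternative macrophage activation product RELMα, lies on chromosome 16 (48842551 to 48844461, plus strand, GRCm38) and was the gene called. It stood at 15.3, 17.02, 551 and 271 CPM in ILC2 (log2 difference 4.65 ± 0.51, adjusted p = 0.0257, edgeR). In Tubb3-/- 1, 140 of its 142 UMIs lay in 1 cell, and in Tubb3-/- 2, 81 of 83, and both cells were among the 6 mixed cells, whose other RNA was myeloid and epithelial. Without the 6 mixed cells the gene was not tested, and 0 of 3445 genes were called by edgeR (163 with an unadjusted p under 0.05). The 142 and 83 UMIs thus came almost wholly from 1 cell per mouse. With at least 2 in place of 3 markers asked of a cell, the log2 difference of Retnla was -0.51. The fibroblast and mural list also changed with these cells, with 7 of 7 tested members above 0 and a median log2 difference of 1.94, which became -0.05 without the mixed cells, and none of its members was called.

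Il5 was among the 5 genes with the lowest p that were lower in Tubb3-/- mice, and none of the 5 passed adjustment. Il5 stood at 1332, 536, 306 and 196 CPM, so both Tubb3-/- mice lay below both WT mice, and the log2 difference was -1.86 ± 0.41, adjusted p = 0.624 by edgeR (unadjusted p = 0.00123). Its UMIs numbered 262, 126, 79 and 60 and came from 11, 15, 8 and 11 cells, with 87, 21, 51 and 19 in the highest cell, so both the cells and the UMIs per cell varied between mice. DESeq2 on the same sums called it (log2 difference -1.86 ± 0.44, adjusted p = 0.0274). Without the 6 mixed cells the difference was -1.84 ± 0.39, and by edgeR it passed the threshold when WT 2, Tubb3-/- 1 or Tubb3-/- 2 was left out, at -2.36, -2.18 and -1.58. Without WT 1, the mouse with the highest level, it was -1.09 ± 0.37 and did not pass (adjusted p = 0.168, edgeR). Il13 stood at 137, 208, 34.9 and 98.0 CPM (log2 difference -1.32 ± 0.46, adjusted p = 0.995, edgeR), Ccl1 at 1322, 1323, 768 and 859 CPM (-0.67 ± 0.17, adjusted p = 0.909, edgeR) and Il4 at 112, 55.3, 19.4 and 49.0 CPM (-1.19 ± 0.55, adjusted p = 0.995, edgeR). Of the 15 effectors tested 0 were called by edgeR, 7 lay above and 8 below 0, 5 had an unadjusted p under 0.05 and the median was -0.06, beside 0.01 over all genes.

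Counted by cell after thinning to 2000 UMIs, a UMI of Il5 or Il13 was found in 29.0% (9 of 31), 38.7% (12 of 31), 15.4% (6 of 39) and 25.0% (10 of 40) of ILC2. The 95% Wilson intervals were 16.1 to 46.6%, 23.7 to 56.2%, 7.25 to 29.7% and 14.2 to 40.2%. Without thinning the shares were 36.4, 45.5, 22.0 and 31.7%. Both Tubb3-/- mice lay below both WT mice, and the difference of the means was -13.7 percentage points (exact two-sided permutation test, p = 0.333, the smallest that 2 mice against 2 allow). Leaving out 1 mouse gave differences of -18.5 to -8.84 points. In NK and B cells no cell held a UMI of either gene.

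Calca (chromosome 7, 114631478 to 114636357, minus strand, GRCm38) was the gene with the next lowest p among those higher in Tubb3-/- mice. It stood at 539, 451, 1039 and 931 CPM in ILC2, so each Tubb3-/- mouse was higher than each WT mouse (log2 difference 1.03 ± 0.21, adjusted p = 0.557, edgeR, unadjusted p = 0.000685). Its 106, 106, 268 and 285 UMIs came from 15, 17, 23 and 22 cells, with 33, 26, 41 and 58 in the highest cell, and the difference was 1.03 ± 0.22 without the mixed cells. It passed the threshold when WT 1 or Tubb3-/- 2 was left out. In CD4 T cells Calca stood at 26.3, 2.24, 213 and 14.1 CPM and in Foxp3 cells at 36.2, 0, 33.5 and 13.7 CPM, where the groups overlapped.

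The other genes with the lowest p that were higher in Tubb3-/- mice were Hspa1b and Hspa1a, which encode near-identical HSP70 heat shock proteins whose reads cannot be told apart with certainty, and Bach1, a haem-sensing repressor. Hspa1b stood at 40.7, 63.8, 155 and 186 CPM (1.72 ± 0.36, adjusted p = 0.624), Hspa1a at 81.3, 68.1, 171 and 216 CPM (1.41 ± 0.32, adjusted p = 0.683) and Bach1 at 25.4, 17.02, 65.9 and 78.4 CPM (1.80 ± 0.49, adjusted p = 0.909, all edgeR). Without the 4 cells with the most H2-Aa the log2 difference of Bach1 was 1.15 ± 0.61 (adjusted p = 0.998, edgeR). Hspa1b passed when WT 2 or Tubb3-/- 1 was left out and Hspa1a when Tubb3-/- 1 was. In CD4 T cells of the same mice both heat shock genes also lay higher in each Tubb3-/- mouse, Hspa1b at 204, 163, 299 and 285 CPM and Hspa1a at 267, 166, 485 and 309 CPM. Heat shock genes are also known to be induced by tissue dissociation. The dissociation list summed to 5460, 5996, 7601 and 6312 CPM, with 14 of 15 members above 0 between the genotypes, a median log2 difference of 0.36 and none called, and its part in these values was not tested.

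Those lower in Tubb3-/- mice were, beside Il5, Cst3, Ccl4, H2-Aa and Gramd3. Cst3, the protease inhibitor cystatin C, stood at 1571, 1902, 512 and 784 CPM (-1.38 ± 0.23, adjusted p = 0.349) and H2-Aa at 971, 791, 341 and 418 CPM (-1.17 ± 0.23, adjusted p = 0.557, edgeR). Both rested on the 4 cells rich in MHC class II RNA, which held 75.4, 84.1, 18.2 and 53.3% of the Cst3 UMIs. Cst3 was called by DESeq2 (adjusted p = 0.0274). With 2 in place of 3 markers Cst3 stood at 0.25, and without those 4 cells the log2 differences were 0.17 and 0.70. Those cells also held 17 and 11 of the WT UMIs of Ccl4, a chemokine that stood at 96.6, 68.1, 7.76 and 9.80 CPM (-3.10 ± 0.59, adjusted p = 0.557, edgeR) and was then no longer tested. Gramd3, a GRAM domain protein gene, stood at 142, 80.9, 27.1 and 16.3 CPM (-2.31 ± 0.50, adjusted p = 0.624, edgeR), and its log2 difference was 0.061 when 2 in place of 3 markers were asked and, without the 4 cells, -2.20. When single mice were left out, Cst3 passed each time, Ccl4 without either Tubb3-/- mouse, H2-Aa without WT 2 or Tubb3-/- 2, and Gramd3 without WT 2 or Tubb3-/- 1. The myeloid list summed to 5796, 5911, 2160 and 4301 CPM in the ILC2, lower in both Tubb3-/- mice, and its part in these differences was not tested. In each mouse 1 mixed cell held many of its UMIs, with 601, 832, 222 and 562 UMIs of the list member Lyz2.

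Many of these differences had the same direction in CD4 T cells of the same mice. Cst3 stood there at 2355, 1020, 361 and 273 CPM, H2-Aa at 685, 309, 95.4 and 46.2 CPM and Gramd3 at 745, 846, 615 and 520.1 CPM. Of the 10 genes named between the genotypes, 7 (Retnla, Hspa1b, Hspa1a, Cst3, Ccl4, H2-Aa and Gramd3) lay on the same side without overlap in CD4 T cells, 2 (Hspa1b and H2-Aa) in NK cells and 0 in Foxp3 cells. Retnla had only 11 UMIs in all CD4 T cells, too few to read a side from. In NK cells the groups of Hspa1b barely parted, at 133.56 CPM in WT 2 and 133.70 CPM in Tubb3-/- 2. Over the 1332 genes whose groups did not overlap in ILC2, 18.4, 21.5 and 19.3% lay on the same side without overlap in CD4 T, NK and Foxp3 cells. Il5, Calca and Bach1 were the 3 that overlapped in CD4 T cells, and no difference between cell sets was tested.

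**Figure D4:**
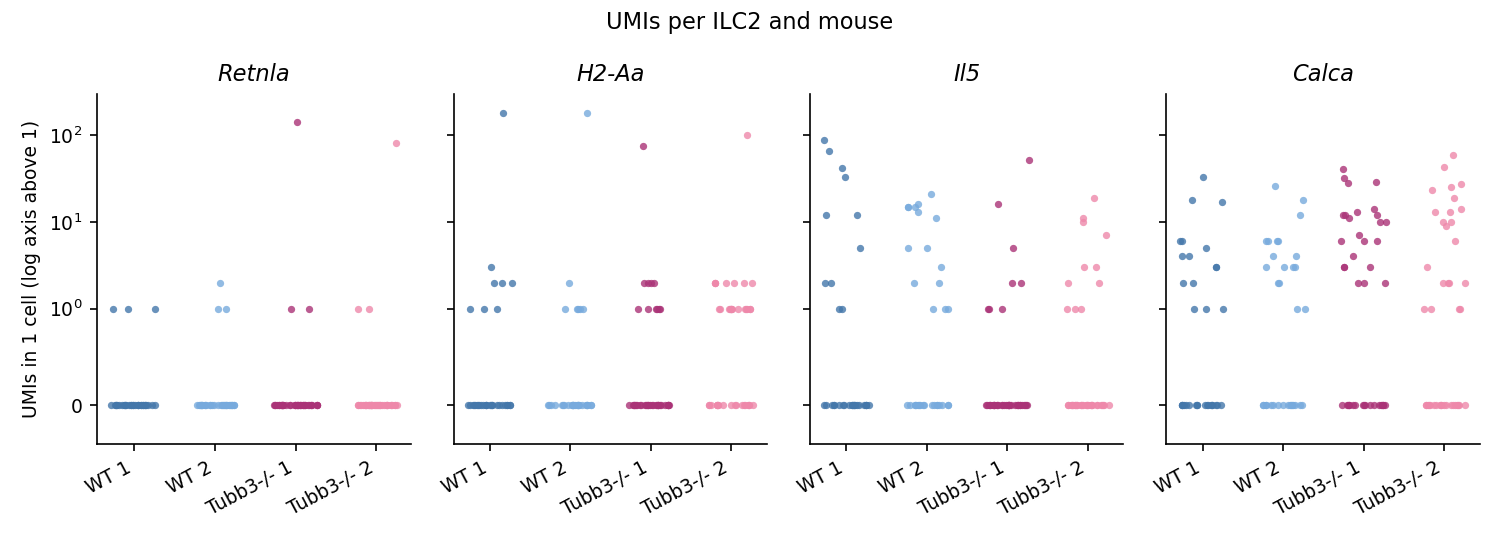
UMIs of 4 genes in each ILC2 (linear below 1 and logarithmic above), with 1 point per cell by mouse. Retnla stands on 1 cell in each Tubb3-/- mouse and H2-Aa on 1 cell in each of the 4 mice. Il5 and Calca were found in 8 to 23 cells per mouse, though 51 of the 79 Il5 UMIs of Tubb3-/- 1 lay in 1 cell.

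The groups of genes that define the cells were not called between the genotypes. Of the identity list 0 of 19 members were called by edgeR (1 with an unadjusted p under 0.05, median log2 difference -0.10), of the receptors 0 of 22 (1, -0.09), of the costimulation list 0 of 14 (4, all MHC class II genes, -0.25), of the NF-κB and JAK-STAT list 0 of 33 (4, 0.13) and of the trafficking list 0 of 16 (1, -0.24). Signalling genes with an unadjusted p under 0.05 included Jun at 153, 229.8, 547 and 333 CPM (1.22 ± 0.34, adjusted p = 0.909), Egr1 at 107, 59.6, 252 and 137 CPM (1.26 ± 0.41, adjusted p = 0.986) and Dusp10 at 137, 132, 42.7 and 75.1 CPM (-1.13 ± 0.36, adjusted p = 0.986, all edgeR). Rora, at 2212, 2613, 2036 and 2175 CPM, had a log2 difference of -0.16 ± 0.14. Its 95% interval, a normal approximation from the SE of the fit, was -0.43 to 0.11.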

How the data were processed

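The data were 10x Chromium 3' v3.1 single-cell libraries of 4 mice in 2 pools, separated by CellPlex tags, with 1 matrix per mouse and pool. The authors deposited whole-number UMI counts per gene and cell, made with Cell Ranger 7.1.0 on mm10 with a Cre sequence added. The 4 GEO samples are pools, so genotype and replicate were read from the tag assignments in the labels' protocol. Tag features were left out. Cells with 200 to 7500 genes and at most 15% mitochondrial UMIs were kept, which leaves more cells than the study states. Scrublet (scanpy 1.11.5) stood in for the study's doublet caller, and its calls were left out only as an alternative.

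CD4 T cells held Ptprc, Cd3e and Cd4 without Foxp3 or Cd8a, Foxp3 cells held Ptprc, Cd3e and Foxp3 without Cd8a, and NK cells held at least 3 of Ncr1, Klrb1c, Klre1, Gzma and Eomes without Cd3e. UMIs were summed per mouse over both libraries and tested with edgeR 4.0.16 (filterByExpr, TMM, quasi-likelihood, Benjamini-Hochberg over all genes tested, in R 4.3.3). DESeq2 1.42.0 was an alternative. CPM values are not TMM-scaled. Shares were tested with exact permutation tests over the 4 mice. Ratios and bounds use a floor of 3 UMIs over the 4 mice.

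Named genes were list members with the highest CPM, the 10 highest and 5 lowest called differences against each other cell set (at least 100 CPM, same side in 4 mice), and, between genotypes, the 5 lowest p in each direction (at least 50 CPM, groups not overlapping). Other genes were chosen after their values were seen. The members and lists were chosen with earlier results of these data known. Coordinates are from GENCODE vM21 (346 of 347 names matched), and strand-specific counting is not given in the sources used here. A few list members enter the counts but are not reported here by name. The scripts were tested on simulated data.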

Additional observations from a re-analysis of the deposited data

Results flagged for a closer look

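In 45 groups of 4 per-mouse log2 differences (normalised CPM with a pseudocount of 1), 1 mouse stood far from the other 3 in 2 groups by Dixon's test. Chance flags about 1 in 20 groups. Cntn1, a neural adhesion molecule gene, was higher in ILC2 than in CD4 T cells by 7.60 in WT 1 and by 5.24 to 5.48 in the other mice, and the CD4 T cells of WT 1 held no UMI of it, at 193 normalised CPM in ILC2. Cd5, a T cell surface receptor gene, stood at -5.81 in ILC2 against Foxp3 cells in Tubb3-/- 2 and at -4.45 to -4.20 in the other mice, with 3.91 normalised CPM in ILC2 and 275 in Foxp3 cells. The ILC2 of the 4 mice held only 10 UMIs of Cd5, so this flag rests on very few UMIs.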

How the results depend on the processing

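With 1 gene called between genotypes in ILC2 (edgeR), the count was 0 with a replicate block (201 genes with an unadjusted p under 0.05), with at least 2 (302) or at least 4 (109) of the 5 markers, without cells with any T cell receptor UMI (9), without cells with Cd3d or Trac (147), without the 6 mixed cells (163) and without the 4 cells with the most H2-Aa (164). It was 3 with DESeq2 (Retnla, Cst3 and Il5), 66 without a filter on low counts and 35 to 81 with 1 mouse left out, and stayed 1 with RLE size factors, whole-cell libraries alone, a 10% mitochondrial limit or doublets left out. Calls against CD4 T, Foxp3 and NK cells (666, 619 and 796) were 1098, 1127 and 1332 without the filter and 211, 117 and 214 without cells with a T cell receptor UMI, where the share of calls that were higher fell from 57.7, 52.8 and 51.1% to 47.4, 41.9 and 43.0% and few cells were left. With 1 mouse left out they were 562 to 714, 579 to 750 and 730 to 816. The Il5 or Il13 share difference of -13.7 points was 0 in the cells without T cell receptor UMIs, -18.5 to -8.84 with 1 mouse left out and otherwise -15.1 to -9.77. That 0 comes from 0 of 1, 0 of 2, 0 of 3 and 0 of 4 cells in the 4 mice, too few to show a difference. The ILC2 share difference was 0.0165 to 0.440 points with 1 mouse left out.

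Between genotypes the log2 difference changed sign for Retnla (-0.51), Cst3 (0.25) and Gramd3 (0.061) with at least 2 markers, and for Cst3 (0.17) and H2-Aa (0.70) without the 4 H2-Aa cells. Of the other values of the 10 genes named there, 118 kept direction and side of the threshold, 28 newly passed it and 2, both of Retnla, no longer did. The genes named against the other cell sets kept both in each of the 184, 184 and 198 values that could be computed. Same-numbered mice of the genotypes deviated together only weakly (correlation 0.136) and shared a number and an Xist level, so no pairing was assumed. With a replicate block the share differences stayed 0.228 points (exact permutation test, p = 0.5) and -13.7 points (p = 0.5, exact), and Retnla was at 4.59 and no longer called. The settings on mixed cells, H2-Aa cells, Cd3d or Trac and cells in both sets were chosen after the data were seen. The 33 to 41 ILC2 per mouse limit what can be seen.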
